A study of Mus musculus with 18 samples.

Results

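Nitric oxide, endothelin and angiotensin are the main signals by which endothelium sets the tone of the vessel wall, and 9 genes of these pathways were followed here through sorted endothelial cells and a tumour cell line of the mouse. The genes are Nos3, Cav1, Ddah1 and Ddah2 of the nitric oxide arm, Edn1, Ece1, Ednra and Ednrb of the endothelin arm, and Ace of the angiotensin arm. They were taken by name, with earlier results of these data known. All 9 were found by Ensembl identifier among the 55401 lines of the endothelial table and by symbol among the 22612 lines of the EO771 table. A mean value of at least 10 was required for testing, which all 9 reached among 18511 genes in the endothelial libraries and 5 reached among 11602 in EO771.

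Nitric oxide is made from arginine by the endothelial synthase NOS3, diffuses to smooth muscle and relaxes it through cyclic GMP. The synthase is held in check by caveolin-1 and by asymmetric dimethylarginine, an arginine analogue that the enzyme DDAH1 breaks down. Endothelin-1 is the opposing signal: it is secreted as a precursor, cut to its active form by ECE1, and constricts mainly through the ETA receptor (Ednra) of smooth muscle, whereas the ETB receptor (Ednrb) of endothelium clears it and triggers nitric oxide release. ACE, on the luminal face of many capillaries, makes angiotensin II and degrades bradykinin.

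RNA-seq was done on 18 libraries in 6 groups of 3. BEC normal libraries held blood vessel endothelial cells, here BECs, sorted from the mammary fat pad, and BEC tumour libraries held BECs of the primary EO771 tumour. HEC normal were high endothelial cells (HECs), the lining of the venules through which lymphocytes enter lymph nodes, from the inguinal nodes of mice without tumours, and HEC tumour were HECs from nodes of tumour-bearing mice, labelled as lymph node metastases. All were sorted from wild-type female C57BL/6 mice as CD45-negative, CD31-high cells, PNAd-positive for HECs and PNAd-negative for BECs. The remaining groups were cultures of EO771, a breast cancer line of the mouse, exposed to 12-HETE, the product of the lipoxygenase ALOX12, or to vehicle alone. HECs came from nodes and BECs from fat pad or tumour, and nodes, fat pad and tumour were each digested with a different enzyme mixture. Cell type, tissue and digestion therefore cannot be told apart in any HEC against BEC comparison. BEC tumour differs from BEC normal in tissue and digestion as well as in tumour, which also enters the comparison of the changes with tumour. The study describes the libraries of a group as independent experiments, without saying how many animals went into each, and the tests measure the spread between these libraries. With 3 libraries a group, the smallest p that an exact permutation test can reach is 0.1, so the tests below borrow their spread from all genes.

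Library totals, in Mcounts (the count times 1e-6), ran from 56.41 to 79.36 in the endothelial libraries, where values rise in steps of about 3.7 units (15.25 to 21.45 after division by the step), and from 17.29 to 18.62 in EO771. All 10 general endothelial markers were above 1 CPM (the count scaled to a fixed library total) in each endothelial group, and their sum stayed between 2840 and 3851 CPM. The 5 high endothelial markers summed to 970 to 1327 CPM in HEC normal and 2219 to 3052 CPM in HEC tumour, against at most 3.87 CPM in BECs. Glycam1 led them, at 573 to 592 CPM in HEC normal and 1078 to 1105 CPM in HEC tumour, and was at 0 in BECs. Chst4 was 0.0596 CPM in HEC normal replicate 2 against 291 and 297 in the others, and Fut7 was 221 CPM in 1 HEC tumour library against 1011 and 1021. Madcam1, an addressin known mainly from mucosal sites, did not pass 0.257 CPM in HECs. Enpp2 did not separate the cell types either. It was 0.119 to 4 CPM in HEC normal and 2.13 to 3.8 in HEC tumour, against 0.948 to 1.4 in BEC normal and 0.725 to 3.82 in BEC tumour. Markers of other cells moved with the groups, and in such bulk libraries fewer cells of a type and less RNA per cell cannot be told apart. The 11 pericyte and smooth muscle markers summed to 894 to 930 CPM in BEC normal, 83 to 128 in BEC tumour, 32.8 to 35.1 in HEC normal and 19.6 to 22 in HEC tumour, with 8, 7, 4 and 3 of them above 1 CPM. Acta2 (621 to 622 CPM in BEC normal) and Tagln made up most of that sum, and Pdgfrb (42.9 to 49.8 CPM), Cnn1 (19.8 to 23.9), Cspg4 (18 to 19.4) and Rgs5 (2.7 to 3.84) were also highest in BEC normal, without overlap. Notch3 and Des did not follow that order, Kcnj8 and Abcc9 were at 0 in BEC normal, and Myh11 did not exceed 0.284 CPM there. The 8 leukocyte markers summed to 628 to 1055 CPM in BEC tumour, led by Lyz2, and to no more than 11.8 CPM in the other endothelial groups. The 6 epithelial and tumour cell markers reached 77.6 CPM in BEC tumour replicate 3, and at most 12 CPM in the rest of that group. The 6 fibroblast markers summed to 196 to 203 CPM in BEC normal and at most 42 CPM in the other endothelial groups. The 4 lymphatic markers matched summed to 200 to 362 CPM in all endothelial libraries. The platelet markers summed to 11 to 29.1 CPM there, and the adipocyte markers did not pass 0.761 CPM. Single markers differed within these sums. Pdpn (24.7 to 68.2 CPM in BECs, 0.727 to 4 in HECs) and Pf4 (15.7 to 22.4 and 0.815 to 1.85) were higher in BECs. Itga2b was higher in HECs (9.38 to 16.1 CPM, against 5.15 to 6.25 in BECs). The part that these cells played in the results below was not tested.

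Edn1 was the member called higher in HECs and Ace the most abundant of those called lower, so the stretches of their promoters that held GATA, AP-1-like or TATA letters are shown. The motifs were searched on both strands in the RefSeq windows (GRCm38.p6, 250 bases before to 50 after each annotated start), namely the GATA letters TTATCT, the AP-1-like letters TGACTAA, the KLF letters CCACCC and the TATA letters TATAAA. Capitals mark the match, and the Ace stretch holds TATAAA in reverse complement.
Edn1, GATA letters, chr13:42301475-42301498, plus strand: agccgggtcTTATCTctggctgca
Edn1, AP-1-like letters, chr13:42301502-42301525, plus strand: tgcctgtgggTGACTAAtcacaca
Ace, TATA letters, chr11:105967908-105967931, plus strand: tggctgggtTTTATAatccgcagg
Both Edn1 matches lay just downstream of the annotated start, at bases 9 to 14 and 37 to 43 from it, and the Ace match lay at bases -31 to -26. Of 32851 windows of this length, 11.2% held the GATA letters, 2.35% the AP-1-like letters, 31.5% the KLF letters and 13.6% the TATA letters on either strand. Edn1 was the only gene among those of the 9 with a window to hold the GATA or the AP-1-like letters, whereas Ddah2, Ece1, Ednrb and a second Ace window held the KLF letters and Cav1 held the TATA letters. A match is a description of the letters and not of binding. The letters were chosen with the members known, so a match in Edn1 alone is not a test.

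**Figure D1:**
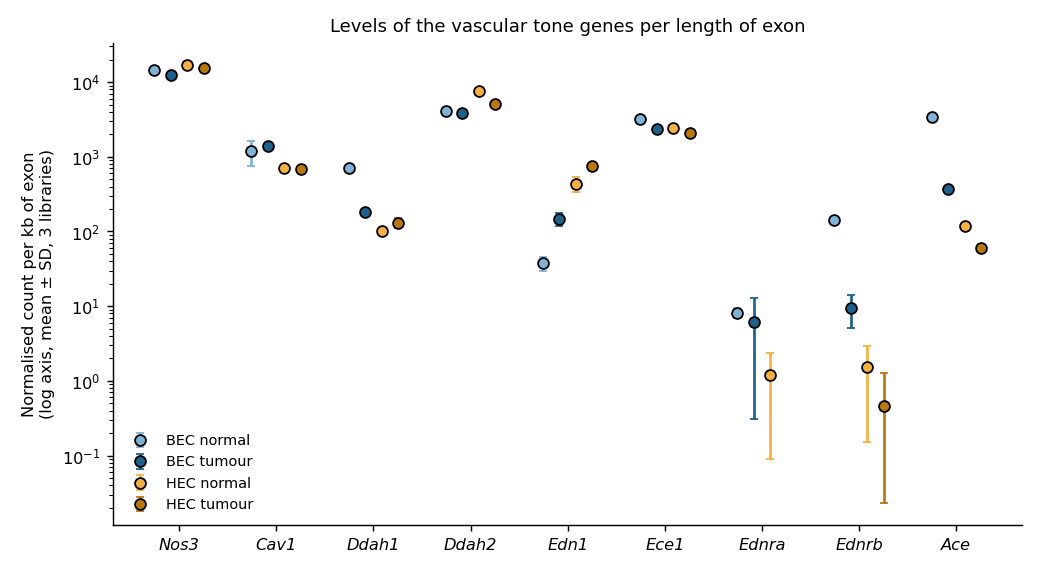
Normalised count per kilobase of exon (log axis, mean with SD, n = 3 libraries) of the 9 genes in the 4 endothelial groups. Lower error bars are shortened where the SD exceeds the mean, and Ednra in HEC tumour (0 in all libraries) is not drawn. Nos3 stood above the other genes in all 4 groups, Ace fell from 3434 in BEC normal to 60.7 in HEC tumour and Edn1 climbed from 37.5 to 743.

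Per length of exon, Nos3 was the highest of the 9 genes in every endothelial group, at 14397 ± 800 normalised counts per kb (SD, n = 3) in BEC normal and 12424 ± 176 in BEC tumour, and at 16842 ± 314 and 15527 ± 351 in the HEC groups, normal and tumour. Ddah2 followed in each group. In BEC normal the order went on with Ace at 3434 ± 10.9 and Ece1 at 3213 ± 61.1 per kb, then Cav1, Ddah1, Ednrb, Edn1 and Ednra. In HEC tumour it went on with Ece1 at 2095 ± 78.5, then Edn1 at 743 ± 63.4 and Cav1 at 685 ± 48.5, a gap within their spread, and then Ddah1, Ace, Ednrb and Ednra. Edn1 thus climbed from place 8 in BEC normal to 7 with tumour, and stood at 5 and 4 in the HEC groups, while Ace went from place 3 to 5, 6 and 7. Other neighbours that did not differ beyond their spread were Edn1 (147 ± 30.4) and Ddah1 (181 ± 8.59) in BEC tumour, Ednrb (9.55 ± 4.4) and Ednra (6.08 ± 6.71) in BEC tumour, and the same receptors in HEC normal (1.53 ± 1.38 and 1.21 ± 1.12) and in HEC tumour (0.463 ± 0.801 and 0).

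**Figure D2:**
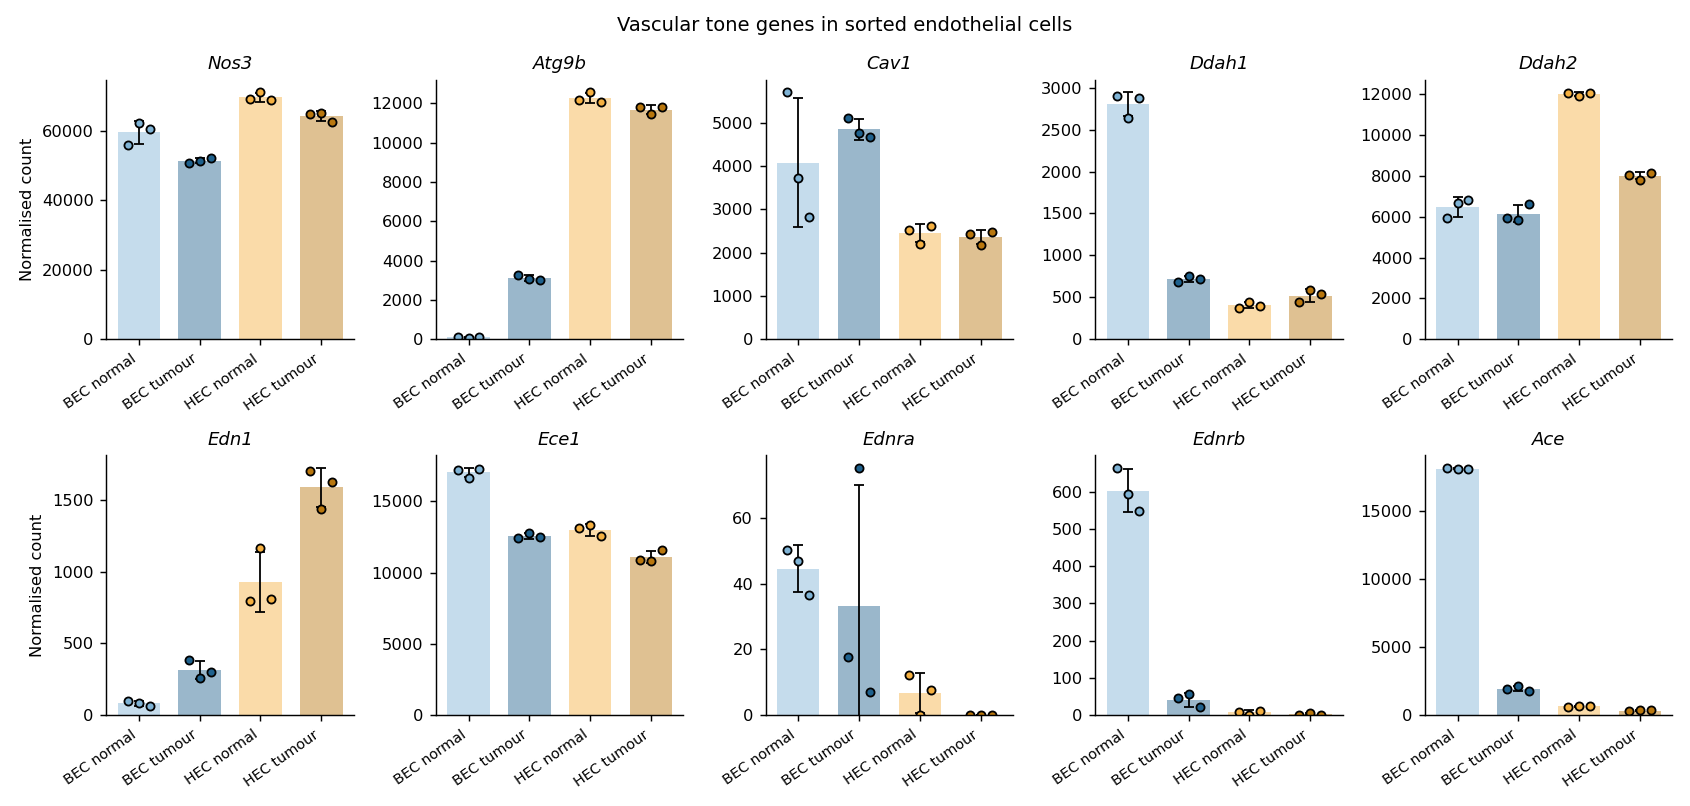
Normalised count of the 9 genes and of Atg9b in each endothelial library (points), with the mean (bar, axis from 0) and SD (error bar, cut at 0) of 3 libraries. Ace, Ednrb and Ddah1 were highest in BEC normal, Edn1 and Atg9b were higher in HECs, and Nos3 varied by less than 1.5 times between group means.

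Nos3 (chromosome 5, 24364810 to 24384474, plus strand, GRCm38) was 55838, 62279 and 60349 normalised counts in the BEC normal libraries, 50632, 51287 and 52085 in BEC tumour, 68996, 71080 and 68704 in HEC normal, and 64824, 65149 and 62494 in HEC tumour. The 4 groups did not overlap, with HEC normal highest and BEC tumour lowest. Between the normal groups Nos3 was higher in HECs, by 0.23 ± 0.05 on the log2 scale (SE, DESeq2 Wald test, adjusted p = 8.3e-06), and in HEC tumour than in BEC tumour by 0.32 ± 0.05 (adjusted p = 2.12e-10). With tumour it fell by 0.21 ± 0.05 in BECs (adjusted p = 3.98e-05) and by 0.12 ± 0.05 in HECs (adjusted p = 0.0446), and those changes did not differ past the threshold (0.10 ± 0.07, adjusted p = 0.261). Each of these differences was well short of 2-fold.

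The reading of Nos3 depends on its neighbour. Atg9b, which encodes a lipid scramblase of autophagy, lies on the opposite strand (chromosome 5, 24384181 to 24392143) and shares 294 bases with the last part of Nos3, 7.1% of the exon length of Nos3 and 7.5% of that of Atg9b. Atg9b was 113, 77.7 and 116 normalised counts in BEC normal, 3279, 3075 and 2996 in BEC tumour, 12172, 12567 and 12067 in HEC normal, and 11808, 11435 and 11786 in HEC tumour. The jump between groups was thus far larger than that of Nos3: a log2 fold change of 6.89 ± 0.10 for HEC normal against BEC normal and of 4.91 ± 0.10 for BEC tumour against BEC normal, each with an adjusted p too small to represent, and of 1.91 ± 0.06 for HEC tumour against BEC tumour (adjusted p = 2.91e-211). Tumour made no difference past the threshold in HECs (-0.07 ± 0.06, adjusted p = 0.386).

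The 2 loci did not track each other in all groups, though in endothelium both were highest in HEC normal and next highest in HEC tumour. In BEC normal, with Nos3 at 59489, Atg9b was 0.172% of it, and in EO771 given vehicle, with Atg9b at 1510, Nos3 was 9.82 normalised counts or 0.65% of it. Taking from Nos3 the share of Atg9b that its overlap has by length left means of 59481 and 51101 in BECs, normal and tumour, and of 68673 and 63280 in HECs, in the same order as before. Taking away the whole Atg9b value left 59387, 48218, 57325 and 52479, so that HEC normal no longer stood above BEC normal while HEC tumour still stood above BEC tumour. Neither subtraction bounds what the neighbour may add, since reads of the shared stretch that were counted for Nos3 are not in the Atg9b value. An antisense gene inside Nos3, Gm15587, overlaps 1040 bases of its exons (25.2%) and had means of 246 and 334 normalised counts in the normal and tumour BECs and of 523 and 622 in the HECs. Whether the strand was used in counting is not given in the sources used here, so reads of the shared stretches cannot be assigned.

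**Figure D3:**
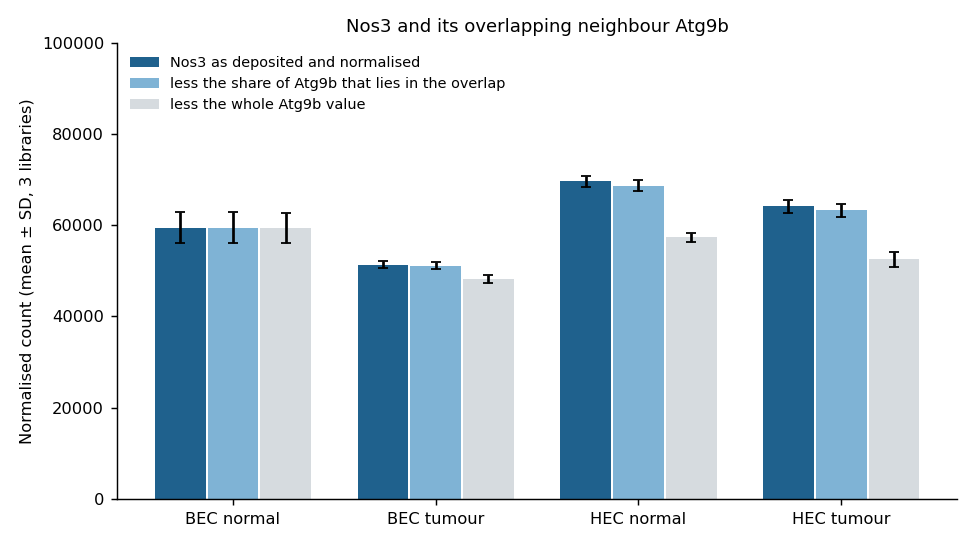
Nos3 in the 4 endothelial groups (mean ± SD, 3 libraries, axis from 0) as normalised, after taking away the 7.5% of Atg9b that its overlap has by length, and after taking away all of Atg9b. The first subtraction changed little, and the second brought HEC normal from 69593 to 57325, beside 59387 in BEC normal.

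Of the Ddah pair, Ddah1 fell and Ddah2 rose from BECs to HECs. Ddah1 (chromosome 3, 145758675 to 145894277) was 2899, 2637 and 2873 normalised counts in BEC normal, 685, 753 and 722 in BEC tumour, 377, 446 and 399 in HEC normal, and 441, 585 and 536 in HEC tumour. BEC normal stood alone, with no overlap. The log2 fold change was -2.78 ± 0.12 for HEC normal against BEC normal (adjusted p = 6.13e-115), -0.47 ± 0.12 for HEC tumour against BEC tumour (adjusted p = 0.000421) and -1.96 ± 0.12 for BEC tumour against BEC normal (adjusted p = 9.23e-61). In HECs it was 0.36 ± 0.13 with tumour (adjusted p = 0.0163), though these 2 groups overlapped, and the test of the difference between the changes with tumour gave 2.32 ± 0.17 (adjusted p = 1.38e-39).

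Ddah2 (chromosome 17, 35059035 to 35062095), the paralogue of Ddah1, was 5925, 6686 and 6845 normalised counts in BEC normal, 5939, 5865 and 6625 in BEC tumour, 12054, 11907 and 12082 in HEC normal, and 8040, 7814 and 8162 in HEC tumour. The BEC groups overlapped, and both HEC groups lay above them. It was higher in HEC normal by 0.89 ± 0.07 (adjusted p = 2.27e-34) and in HEC tumour by 0.38 ± 0.07 (adjusted p = 4.61e-07) on the log2 scale. With tumour it fell by 0.59 ± 0.07 in HECs (adjusted p = 7.07e-15) and had a log2 fold change of -0.08 ± 0.07 in BECs (adjusted p = 0.374), a difference of -0.51 ± 0.10 (adjusted p = 2.8e-06). Ddah2 stood above Ddah1 in every endothelial group: per kb the pair stood at 4071 and 704 in BEC normal and at 7542 and 102 in HEC normal.

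Cav1 (chromosome 6, 17306335 to 17341452), the coat protein of caveolae that binds NOS3, was 5710, 3722 and 2813 normalised counts in BEC normal, 5122, 4754 and 4661 in BEC tumour, 2525, 2211 and 2624 in HEC normal, and 2421, 2171 and 2488 in HEC tumour. BEC normal spread the most, and its lowest library still lay above every HEC library. The log2 fold change was -0.73 ± 0.20 for HEC normal against BEC normal (adjusted p = 0.000724) and -1.04 ± 0.20 for HEC tumour against BEC tumour (adjusted p = 1.66e-06). The latter sat at the 2-fold limit and was no longer past it without HEC tumour replicate 2 (-0.98) or, narrowly, without BEC tumour replicate 1. With tumour the values were -0.06 ± 0.21 in HECs and 0.25 ± 0.20 in BECs (adjusted p = 0.881 and 0.315), with 95% intervals from -0.46 to 0.35 and from -0.15 to 0.65.

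In the endothelin arm, the ligand was higher and its receptors were lower in HECs. Edn1 (chromosome 13, 42301476 to 42307990), whose promoter stretches are shown above, was 95.2, 84.7 and 61 normalised counts in BEC normal, 384, 255 and 302 in BEC tumour, 798, 1166 and 810 in HEC normal, and 1700, 1438 and 1627 in HEC tumour. No groups overlapped, and the values climbed in that order. The log2 fold change was 3.52 ± 0.23 for HEC normal against BEC normal (adjusted p = 8.22e-50), 2.34 ± 0.22 for HEC tumour against BEC tumour (adjusted p = 1.69e-25) and 1.96 ± 0.24 for BEC tumour against BEC normal (adjusted p = 1.02e-15). In HECs it was 0.78 ± 0.22 (adjusted p = 0.00145), so the change with tumour was smaller there by 1.18 ± 0.32 (interaction -1.18, adjusted p = 0.000762). Without HEC normal replicate 2, the highest of its group and the library with almost no Chst4, that difference was -0.99 and no longer past 2-fold.

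Ece1 (chromosome 4, 137862237 to 137965229), the protease that activates the precursor, was 17163, 16659 and 17263 normalised counts in BEC normal, 12457, 12780 and 12470 in BEC tumour, 13093, 13344 and 12545 in HEC normal, and 10903, 10822 and 11580 in HEC tumour. BEC normal was highest and HEC tumour lowest, with no overlap between the groups of any comparison tested. All 4 log2 fold changes were small and negative: -0.39 ± 0.04 for HEC normal against BEC normal (adjusted p = 1.15e-17), -0.18 ± 0.04 for HEC tumour against BEC tumour (adjusted p = 0.000193), -0.23 ± 0.04 with tumour in HECs (adjusted p = 3.5e-06) and -0.44 ± 0.04 with tumour in BECs (adjusted p = 7.84e-22).

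Ednrb (chromosome 14, 103814625 to 103844402, minus strand) was 665, 594 and 550 normalised counts in BEC normal, 45.5, 56.7 and 20.1 in BEC tumour, 8.11, 0 and 11.5 in HEC normal, and 0, 5.92 and 0 in HEC tumour. It was thus mostly a transcript of BEC normal. The log2 fold change was -6.52 ± 0.76 for HEC normal against BEC normal (adjusted p = 6.25e-17) and -3.89 ± 0.70 for BEC tumour against BEC normal (adjusted p = 1.23e-07). The former fold is loosely set, as HEC normal lies under the limit of a true 0, and was -7.21 without HEC normal replicate 3. In HEC tumour only 2 steps were seen against 38 in BEC tumour, a ratio of 15.5 with a 95% counting interval from 4.01 to 133 (fitted adjusted p = 1.17e-05). The fitted log2 fold change was -4.29, and -7.61 without HEC tumour replicate 2, the only library of its group with a value above 0. Both HEC groups were under the 11.1 units (3 steps) that a true 0 allows in a library, so no fold between them is given. The summed pericyte and smooth muscle markers followed the same order (894 to 930 CPM in BEC normal, 83 to 128 in BEC tumour, at most 35.1 in HECs), and their part in the Ednrb values was not tested.

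Ednra (chromosome 8, 77663031 to 77724464, minus strand), a receptor known mainly from smooth muscle and pericytes, was 50.3, 47.1 and 36.6 normalised counts in BEC normal, 17.6, 75.3 and 6.97 in BEC tumour, 12.2, 0 and 7.64 in HEC normal, and 0 in all HEC tumour libraries. The BEC groups overlapped widely (-0.42 ± 1.20, adjusted p = 0.796), and 1 library, BEC tumour replicate 2, held most of its group's total. HEC normal against BEC normal gave -2.76 ± 1.23 (adjusted p = 0.0411), which edgeR did not call (adjusted p = 0.072) and which was lost on leaving out any BEC normal library, BEC tumour replicate 1, or HEC normal replicate 2 or 3 (adjusted p from 0.0549 to 0.118). Its size moved to -3.53 without HEC normal replicate 1 and to -2.17 without replicate 2. Against HEC tumour, BEC tumour was at least 3.0-fold higher (fitted adjusted p = 3.59e-05), or at least 1.11-fold higher without BEC tumour replicate 2. Summed pericyte and smooth muscle markers were 894 to 930 CPM in BEC normal, 83 to 128 in BEC tumour and at most 35.1 in HECs. Between the BEC groups the Ednra values overlapped, unlike these sums, and the part of the markers in Ednra was not tested. Both HEC groups were at or under the limit of a true 0, and no fold is given for them.

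Ace (chromosome 11, 105967945 to 105989964) showed the steepest ladder of the abundant members. It was 18215, 18157 and 18099 normalised counts in BEC normal, 1884, 2129 and 1800 in BEC tumour, 597, 626 and 660 in HEC normal, and 274, 343 and 346 in HEC tumour. No groups overlapped. The log2 fold change was -4.85 ± 0.09 for HEC normal against BEC normal (adjusted p too small to represent), -3.23 ± 0.09 for BEC tumour against BEC normal (adjusted p = 2.46e-279) and -2.59 ± 0.10 for HEC tumour against BEC tumour (adjusted p = 3.22e-140). With tumour it also fell in HECs, by 0.97 ± 0.11 (adjusted p = 2.52e-18), just short of 2-fold and past it without HEC tumour replicate 2 or 3 (-1.02 each) or, narrowly, without HEC normal replicate 1. Its fall with tumour was smaller in HECs by 2.26 ± 0.14 (adjusted p = 6.54e-58). Its antisense neighbour Gm11651 was at 0 in all but 1 endothelial library, where it reached 3.05, and the neighbours of Edn1 (Gm47118) and Ednra (4933431K23Rik) were at 0 throughout.

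**Figure D4:**
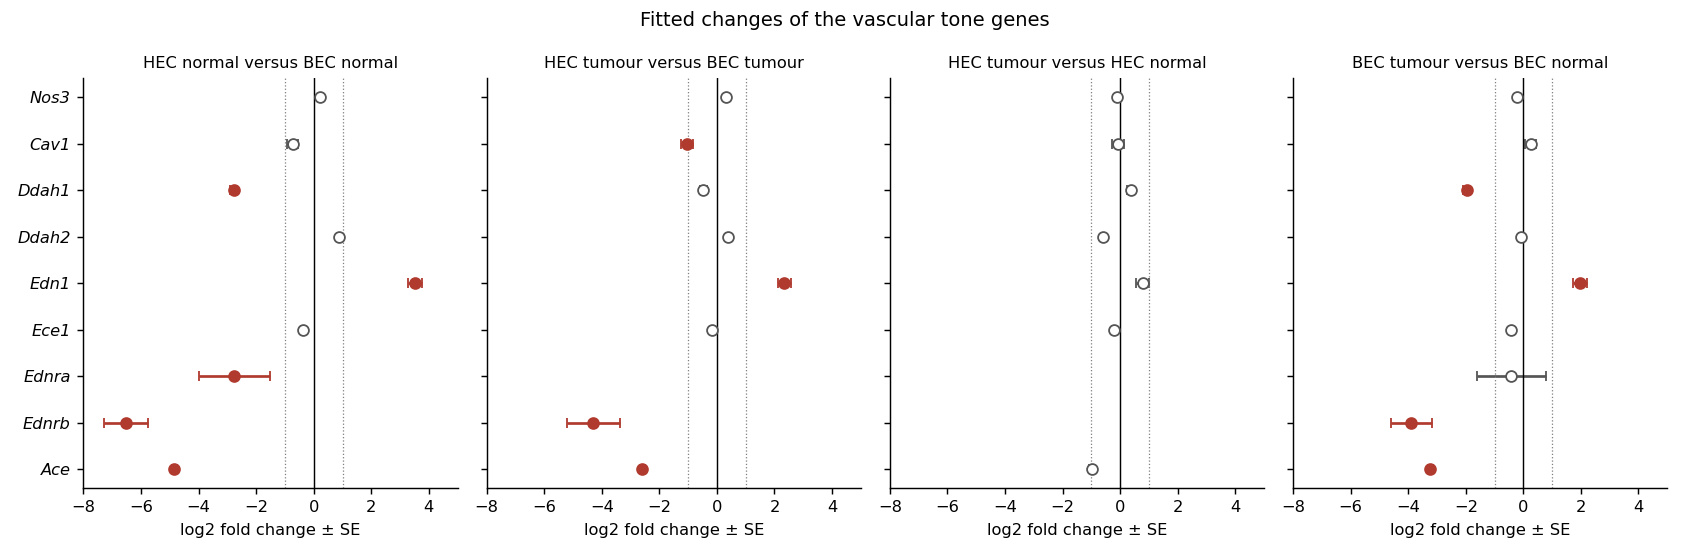
Fitted log2 fold change with SE (DESeq2) of the 9 genes in the 4 comparisons of endothelial groups; filled points passed an adjusted p of 0.05 and 2-fold (dotted lines). Ednra in both HEC tumour comparisons and Ednrb in HEC tumour against HEC normal are not drawn, since HEC tumour was at 0 for Ednra and both HEC groups were under the limit of a true 0. The other Ednra and Ednrb points against a HEC group also rest on values under that limit. Edn1 lay to the right in each HEC against BEC comparison and Ace, Ednrb and Ddah1 to the left of HEC normal against BEC normal.

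Counted over the 9 genes, 1 (Edn1) was called higher and 4 (Ddah1, Ednra, Ednrb, Ace) were called lower in HEC normal than in BEC normal, where 17.1% of all genes tested were called higher and 15.1% lower, and the other 4 passed the adjusted p alone, as 63.3% of all genes did at any size. In HEC tumour against BEC tumour, 1 (Edn1) was higher and 4 (Cav1, Ednra, Ednrb, Ace) were lower, against 11.2% and 10.7% of all genes. The other 4 passed the adjusted p at a smaller fold, where 54.3% of all genes passed it at any size, called genes included. BEC tumour against BEC normal had 1 higher (Edn1) and 3 lower (Ddah1, Ednrb, Ace), against 12.4% and 10.8%. A further 2 passed the adjusted p at a smaller fold, where 53.7% of all genes passed it at any size, called genes included. HEC tumour against HEC normal had none higher and 1 lower, Ednra at the limit of a true 0, against 4.58% and 3.21%. Here 6 more passed the adjusted p at a smaller fold, Edn1 and Ddah1 upwards among them, where 35.4% of all genes passed it at any size, called genes included. At an unadjusted p under 0.05, 2 were higher and 5 lower in DESeq2, and edgeR called 0 of the 9 in either direction. The change with tumour was called higher in HECs than in BECs for Ddah1 and Ace and lower for Edn1, against 11.2% and 12.1% of all genes. By that test 2 more passed the adjusted p at a smaller fold, where 46.7% of all genes passed it at any size, called genes included. The median log2 fold change of the 9 genes was -0.73, -0.47, -0.42, -0.23 and 0.10 in these 5 comparisons, in the order given, against a median within 0.02 of 0 over all genes tested. Ednra and Ednrb had means of at most 6.61 in HECs and passed the filter of 10 only through the BEC groups. Their lower calls in HECs, and their part in these counts and medians, are therefore not independent of the filter. The comparisons share libraries, so they are not independent of each other.

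Around these members, 62 further genes of vascular tone were listed, of which 46 were tested in endothelium. In HEC normal against BEC normal 7 were called higher and 13 lower, where 17.1% and 15.1% of all genes were. Of 20 tested genes of nitric oxide synthesis and its regulation, 4 were higher and 2 lower, led by Gch1, which makes the tetrahydrobiopterin cofactor of NOS3 (2477 to 7891 normalised counts, log2 fold change 1.67 ± 0.08), and Klf2, the flow-responsive activator of Nos3 (5587 to 15446, 1.47 ± 0.08). Of 5 genes of the nitric oxide receptor and cyclic GMP, 2 were higher and 1 lower. The higher ones were Gucy1a2, a guanylate cyclase subunit (21.8 to 377, 4.12 ± 0.40, or 4.92 without BEC normal replicate 3), and Irag1, a target of the cyclic GMP kinase (107 to 552, 2.36 ± 0.20). Of 16 other vasoactive genes, 1 was higher and 10 were lower. Adm, which encodes the vasodilator adrenomedullin, rose from 778 to 10347 (3.73 ± 0.11), while the natriuretic peptide receptor Npr1 fell from 6300 to 600 (-3.39 ± 0.13). The 2 tested genes of other endothelins and their proteases and the 3 of the angiotensin and kinin system had 0 calls in DESeq2, with 0 and 1 of them at an unadjusted p under 0.05.

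In HEC tumour against BEC tumour, 8 of the 46 were called higher and 6 lower, against 11.2% and 10.7% of all genes. Klf2 (4306 to 13666, log2 fold change 1.67 ± 0.08) and Klf4 (2517 to 7575, 1.59 ± 0.06), transcription factors that rise with laminar flow, Irag1 (522 to 1428, 1.45 ± 0.18), Adm (2172 to 6925, 1.67 ± 0.10) and Ramp3, a partner of its receptor (46.6 to 289, 2.63 ± 0.23), were higher. Gucy1b1, the beta subunit of guanylate cyclase, was 23 in BEC tumour and 0 in all HEC tumour libraries, at least 2.07-fold lower. With tumour in HECs, 3 were called higher and 3 lower, against 4.58% and 3.21% of all genes. Nos2, the inducible synthase, fell from 357 to 123 (-1.54 ± 0.29) and Arg2, which competes for arginine, from 155 to 26.7 (-2.54 ± 0.65). Irag1 (552 to 1428, 1.37 ± 0.18), the cation channel Trpv4 (49.7 to 126, 1.34 ± 0.28) and the thromboxane synthase Tbxas1 (14.2 to 52.8, 1.89 ± 0.43) rose. The remaining lower call, Gucy1b1, rested on a mean of 6.57 against 0, both under the limit of a true 0.

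In BEC tumour against BEC normal 8 of the 46 were called higher and 11 lower, against 12.4% and 10.8% of all genes. Slc7a1, the arginine transporter, rose from 9754 to 22716 (log2 fold change 1.22 ± 0.04), Irag1 from 107 to 522 (2.28 ± 0.20) and Gucy1a2 from 21.8 to 474 (4.45 ± 0.39, or 5.25 without BEC normal replicate 3). Nos2 fell from 271 to 32.1 (-3.07 ± 0.31), Npr1 from 6300 to 557 (-3.50 ± 0.13) and Ramp3 from 2526 to 46.6 (-5.76 ± 0.23). Ece2, another endothelin-converting enzyme, went from 157, 188 and 301 in the BEC normal libraries, from lowest to highest, to 0, 0 and 13 in BEC tumour (-5.64 ± 2.35, adjusted p = 0.0318), and its size ran from -5.05 without BEC tumour replicate 2 to -10.41 without replicate 1. That call was lost without any single BEC normal library, or without HEC normal replicate 1 or 2 (adjusted p from 0.0821 to 0.152). By the interaction test, 16 of the 46 were called, 11 of them with a change higher in HECs than in BECs and 5 lower, against 11.2% and 12.1% of all genes. A further 10 passed the adjusted p at a smaller fold, where 46.7% of all genes passed it at any size, called genes included. Calcrl, the adrenomedullin and CGRP receptor, was 13305 in BEC normal and 392 to 444 in the other groups (interaction 4.95 ± 0.29), Npr1 had the same layout (3.50 ± 0.18), and Arg2 rose in BECs from 9.4, under the limit of a true 0, to 85.4 while falling in HECs (-5.69 ± 0.95). Gucy1a2 (-4.14 ± 0.53, or -4.94 without BEC normal replicate 3) and Gch1 (-1.11 ± 0.12) were lower. Pde5a, which breaks down cyclic GMP, had an interaction of 1.08 ± 0.36 (adjusted p = 0.00713), which was at or under the 2-fold limit (lowest 0.91) without BEC normal replicate 3, BEC tumour replicate 3, HEC normal replicate 2 or 3, or HEC tumour replicate 3. All adjusted p-values of the named genes in these paragraphs were under 0.05 in DESeq2.

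The genes most like each member were sought by Pearson's r of log2(normalised count + 1) over the 12 endothelial libraries, which share 4 groups and their depths, so r describes mainly the group pattern. Nos3 was most like Rpl24 (0.988) and Cavin3 (0.985), Cav1 like Mllt10 (0.942) and Xpo7 (0.941), Ddah1 like Atoh8 and Adamts5 (both 0.994) and Ddah2 like Gnl1 (0.984) and Chmp4b (0.983). Edn1 was most like Swap70 (0.991) and Neat1 (0.989), Ece1 like Dnpep (0.987) and Samd4b (0.984), Ednra like 4932702P03Rik (0.959) and Fbxo42 (0.938), Ednrb like Ankrd29 (0.984) and Gfra2 (0.983), and Ace like Psmb2 (0.995) and Ltbp1 (0.994). Among the members, Edn1 ran opposite to Ace (r = -0.99), Ednrb (-0.96) and Ddah1 (-0.91), whereas Ace ran with Ddah1 and Ednrb (0.95 each).

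**Figure D5:**
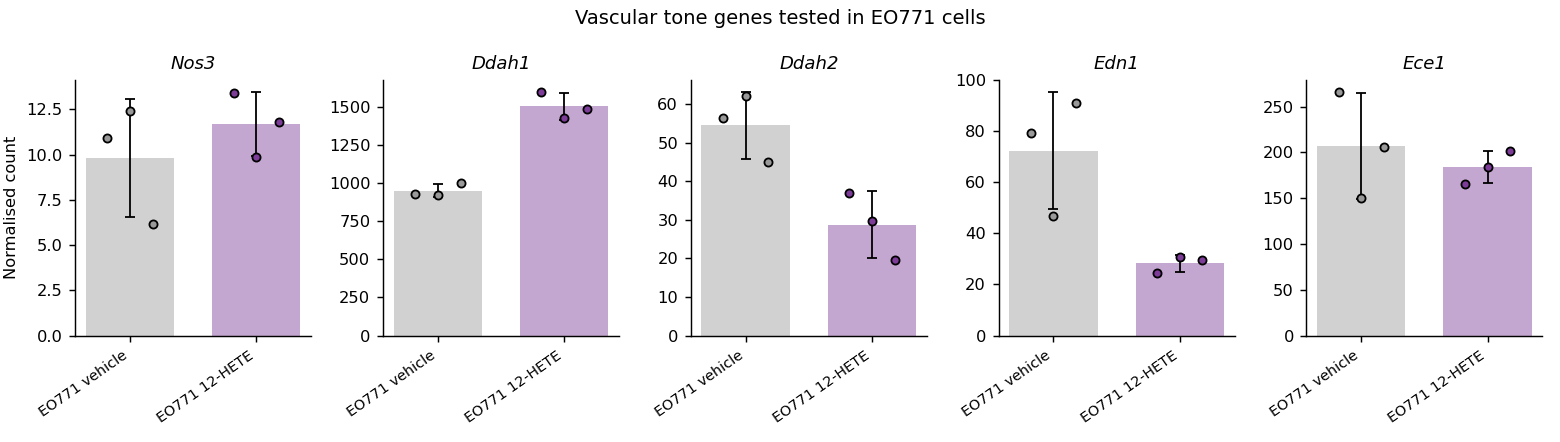
Normalised count of the 5 genes tested in EO771 in each library (points), with the mean (bar, axis from 0) and SD (error bar) of 3 libraries. Ddah1 was higher with 12-HETE, Ddah2 and Edn1 were lower, and the groups of Nos3 and Ece1 overlapped.

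In EO771 the order was another. Ddah1 led at 239 ± 10.9 normalised counts per kb (SD, n = 3) with vehicle and 378 ± 22 with 12-HETE, and Nos3 was 2.38 ± 0.792 and 2.82 ± 0.424. With vehicle, Ece1 (39.1 ± 11), Ddah2 (34.2 ± 5.46) and Edn1 (33.8 ± 10.7) did not differ beyond their spread. Ednrb had no count in any of the 6 libraries, Ednra had 1, Cav1 2 and Ace 4 in all, so these 4 genes were not tested and no fold is given. Such counts are at or under the 3 per library that a true 0 allows, which covers counting error only.

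With 12-HETE, 1 of the 5 genes tested was called lower and none higher, where 7.79% and 2.38% of all genes were called, and 2 more passed the adjusted p at a smaller fold (47.0% of all genes did at any size). At an unadjusted p under 0.05, 1 was higher and 2 lower, and edgeR likewise called 1. Edn1 was 79.2, 46.8 and 91.1 normalised counts with vehicle and 24.6, 30.6 and 29.5 with 12-HETE. The groups did not overlap, and it fell by 1.35 ± 0.35 on the log2 scale (adjusted p = 0.000481). Ddah1 was 928, 926 and 1002 with vehicle and 1600, 1428 and 1485 with 12-HETE, without overlap, and rose by 0.66 ± 0.10 (adjusted p = 3.49e-10). Ddah2 was 56.4, 62.1 and 45 with vehicle and 37, 29.6 and 19.7 with 12-HETE. It fell by 0.93 ± 0.35 (adjusted p = 0.0195), more than 2-fold without vehicle replicate 3 (-1.05) or 12-HETE replicate 1 (-1.14). The change in the median gene was 0, and that of the 5 members -0.17.

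Ece1 was 266, 150 and 206 normalised counts with vehicle and 166, 184 and 201 with 12-HETE (log2 fold change -0.17 ± 0.23, adjusted p = 0.557, 95% interval from -0.62 to 0.28). Nos3 was 10.9, 12.4 and 6.14 against 13.4, 9.86 and 11.8 (0.24 ± 0.59, adjusted p = 0.761, from -0.92 to 1.41). Neither interval leaves out 0, and that of Nos3 takes in a 2-fold rise. Atg9b, beside Nos3, was 1327, 1819 and 1383 with vehicle and 732, 768 and 757 with 12-HETE, without overlap. It fell by 1.01 ± 0.14 (adjusted p = 5.82e-11), at the 2-fold limit, and was short of it without vehicle replicate 2 (-0.86) or 12-HETE replicate 1 (-0.98).

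Of the 62 further genes, 28 were tested in EO771, of which 5 were called lower and none higher, and 12 more passed the adjusted p at a smaller fold. Over all EO771 genes 7.79% were lower, 2.38% higher and 47.0% past the adjusted p at any size. At an unadjusted p under 0.05, 9 were higher and 11 lower, and edgeR called 6, all lower. Nos2 was 35.8, 78.4 and 87.1 normalised counts with vehicle, from lowest to highest, and 0 in all libraries with 12-HETE, at least 22.4-fold lower. Gch1, the cofactor enzyme of both synthases, fell from 1287 to 466 (log2 fold change -1.47 ± 0.10), Ramp3 from 214 to 57.3 (-1.90 ± 0.23) and the peptide Apln from 164 to 67 (-1.29 ± 0.23). Irag1 fell from 33.5 to 10 (-1.75 ± 0.58, adjusted p = 0.00808), a call lost without vehicle replicate 2 (-1.05, adjusted p = 0.113) or 12-HETE replicate 3 (adjusted p = 0.062).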

How the data were processed

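The authors aligned the reads to GRCm38 with STAR and used featureCounts for the count per gene. Whole numbers were deposited for endothelium, which were treated as estimated counts, because low values rise in steps of about 3.7 units. The deposited EO771 values are raw counts by gene symbol. The strand used for counting is not given in the sources used here, and the kit is named differently in the labels and the methods. Here DESeq2 1.42.0 in R 4.3.3 was run on all genes with a mean value of at least 10 (two-sided Wald test, Benjamini-Hochberg adjustment over all genes tested), with the 12 endothelial libraries in one fit and the 6 EO771 libraries in another. The tool, the filter and the thresholds follow the study's methods. A gene was called at an adjusted p under 0.05 and a fold change over 2. Levels are counts divided by DESeq2 size factors (mean ± SD, 3 libraries), and each log2 fold change is followed by its SE. Exon lengths and overlaps were from GENCODE for GRCm38. The floor for a true 0 was 3 steps (11.1 units) per endothelial library and 3 counts per EO771 library. The floors and the interval of the ratio of steps cover counting error only, whereas the 95% intervals of log2 fold changes are Wald intervals that include the spread between libraries. Alternatives were edgeR 4.0.16, other size factors, other filters, a replicate block, the 2 groups alone, values divided by the step, and each library left out. All 9 members are named whatever their values, along with genes whose exons overlap theirs; of the 62 further genes, those named had the largest Wald statistics among the called, at most 2 for each list and comparison, and the 2 most like genes were taken by Pearson's r. Members, lists and tests were chosen with earlier results of these data known. The scripts were tested on simulated data.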

Additional observations from a re-analysis of the deposited data

Results flagged for a closer look

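Ddah1, Ace, Edn1 and Atg9b changed with tumour by amounts that were unlike in HECs and BECs, by the interaction test of the DESeq2 fit. For Ddah1 the difference was 2.32 ± 0.17 on the log2 scale (adjusted p = 1.38e-39), with means of 2803 and 720 in BECs, normal and tumour, and then of 408 and 521 in HECs. For Ace it was 2.26 ± 0.14 (adjusted p = 6.54e-58), with means of 18157, 1938, 628 and 321 in the same order. For Edn1 it was -1.18 ± 0.32 (adjusted p = 0.000762), with means of 80.3, 314, 925 and 1588, and -0.99 without HEC normal replicate 2. For Atg9b, the neighbour of Nos3, it was -4.98 ± 0.12 (adjusted p too small to represent), with means of 102, 3117, 12269 and 11676. In each case the larger change on the log2 scale was that between BEC normal and BEC tumour, which come from different tissues digested with different enzyme mixtures. The summed pericyte and smooth muscle markers (894 to 930 CPM in BEC normal, 83 to 128 in BEC tumour) and leukocyte markers (at most 11.8 CPM in BEC normal, 628 to 1055 in BEC tumour) moved between the same groups. Their part in these differences was not tested.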

How the results depend on the processing

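Of the tests on members under alternatives, 857 kept their direction and side of the threshold, 13 lost the call, 13 gained it and 4 reversed in sign. The reversed results had passed no test as reported, and on leaving out each library ranged from -1.86 to 0.06 for Ednra in BEC tumour against BEC normal (0.06 without BEC tumour replicate 3), from -1.10 to 2.93 for the Ednrb interaction (-1.10 without HEC tumour replicate 2), and in EO771 from -0.37 to 0.04 for Ece1 (0.04 without vehicle replicate 1) and from -0.00 to 0.45 for Nos3 (-0.00 without vehicle replicate 3). Members called in HEC tumour against HEC normal numbered 0 with edgeR, and from 1 to 3 on leaving out each library. They also numbered 0 with a mean value of at least 50, with the 2 groups alone and with values divided by their step. In those settings Ednra, the gene called, fell under the filter and was not tested. In EO771 the members called numbered from 1 to 2. Of the named further genes, 619 results kept their call and 12 lost it. Same-numbered libraries deviated together by correlations of -0.011 to 0.096 in endothelium and 0.074, 0.144 and 0.282 in EO771, so the numbers were not taken as pairs. With the replicate block the members called numbered 4 in HEC normal against BEC normal, where Ednra was lost (-2.67, adjusted p = 0.0873), and Atg9b in EO771 was -0.99. The block changed no other member's call. Depth limits Ednra, and Ednrb in HECs, which rest on a few steps per library.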
